A study of Arabidopsis thaliana with 24 samples.

Results

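The genes described here are the nuclear genes of Arabidopsis thaliana that the deposited count table does not label protein_coding and that were read often enough to be measured. The genes were chosen by annotation and by measured read number: a row was taken when its Biotype value was anything but protein_coding, its locus lay on chromosomes 1 to 5 and its counts summed to at least 2400 over the 24 libraries. The sum was reached by 210 of the 5128 nuclear non-coding rows (4.1%), in a table of 32833 rows, and these 210 genes held 82.8% of all reads on nuclear non-coding rows. Their share of a library's reads was 0.325% to 0.625%. Since the count sum chose the genes, their levels are a description, and a gene that reached the sum mainly through reads of a single condition had to differ there.

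The libraries came from whole seedlings, 9 days old, grown on MS medium with sucrose and treated for 60 min. The groups were exa1-1 with 200 mM NaCl, wild type (WT, Col-0) with 200 mM NaCl, exa1-1 on control medium (MS), WT on control medium, exa1-1 at 39 °C, WT at 39 °C, exa1-1 at 23 °C and WT at 23 °C, with 3 libraries each. EXA1 encodes a GYF-domain protein, and exa1-1 (written exa1 below) was the only mutant line. The salt set (NaCl and MS) and the heat set (39 °C and 23 °C) each had their own unstressed libraries, so comparisons stayed within a set. Nothing in the labels ties the replicates to separate sowings, so the spread behind every p-value may be technical.

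Plant non-coding transcripts of this size fall into a few known kinds. Genes named MIR are transcribed as long precursors from which, in most cases, DCL1 cuts a miRNA of about the length of the sequences below. The miRNA then directs an ARGONAUTE protein to cut or silence matching mRNAs. TAS transcripts are themselves cut by a miRNA, copied into double-stranded RNA by RDR6 and diced into trans-acting small RNAs. Natural antisense transcripts run across a coding gene on the other strand, snoRNAs guide the chemical modification of ribosomal RNA, and many further long non-coding RNAs (lncRNAs) have no described role.

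A mature miRNA of each of the 8 MIR genes is shown to identify the small RNA that the precursor encodes; the counts reported below are of precursor genes. Where RefSeq lists both arms of a precursor, 1 is shown. The sequences are RefSeq's (TAIR10.1), written 5′ to 3′ with the seed, bases 2 to 8, in capitals. No 2 of them shared a seed.
miR398b-3p (chr5:4691107-4691127, plus strand): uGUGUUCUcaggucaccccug
miR408-3p (chr2:19319933-19319953, plus strand): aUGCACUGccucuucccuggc
miR824-5p (chr4:12625128-12625148, plus strand): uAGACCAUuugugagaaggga
miR822-5p (chr5:897287-897307, minus strand): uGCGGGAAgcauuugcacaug
miR850 (chr4:7845756-7845777, plus strand): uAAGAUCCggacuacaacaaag
miR414 (chr1:25137519-25137539, minus strand): uCAUCUUCaucaucaucguca
miR5630a (chr1:12011199-12011219, minus strand): gCUAAGAGcgguucugaugga
miR5642a (chr3:14197116-14197135, plus strand): uCUCGCGCuuguacggcuuu

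The TAS1 and TAS2 transcripts are cut under the guidance of miR173, and the stretch of each that best matched it is shown because these 4 genes moved together. miR173-5p (RefSeq, chr3:8236161-8236182, plus strand) has its seed in capitals, and in the sites, which have 22 bases each, capitals mark bases that do not pair with it in the Watson-Crick sense.
miR173-5p: uUCGCUUGcagagagaaaucac
TAS1A site (chr2:11722081-11722102, minus strand): gugauuuUucucuAcaagcgaa
TAS1B site (chr1:18549660-18549681, minus strand): gugauuuUucucAAcaagcgaa
TAS1C site (chr2:16537890-16537911, minus strand): gugauuuUucucuAcaagcgaa
TAS2 site (chr2:16539991-16540012, minus strand): gugauuuUucucuCcaagcgaa
TAS1A, TAS1C and TAS2 had 2 bases outside Watson-Crick pairing and TAS1B had 3, and every site paired throughout the seed. In each site the first of these bases was a U opposite a G of miR173, which can form a wobble pair.

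By Biotype value the 210 genes were 126 lncRNA, 54 ncRNA, 15 nontranslating_CDS, 8 miRNA, 6 snoRNA and 1 rRNA, while none of the 625 tRNA or 82 snRNA rows reached the sum. The share of rows that did was 60.0% for nontranslating_CDS, 18.06% for ncRNA, 3.62% for lncRNA, 2.46% for miRNA and 2.09% for snoRNA, against 57.3% of nuclear protein-coding rows. All 15 nontranslating_CDS genes are annotated as protein-coding by RefSeq, so their inclusion rests on the deposited label. A single exon was annotated for 51.9% of the 210 genes, against 12.2% of the 15700 coding genes with the same count sum, and the median exon length was 1364 against 1844 bases. GC content hardly differed, with a median of 40.6% in the non-coding genes and 41.3% in the coding genes. Overlap with a coding gene on the other strand was found for 139 of the 210, of which 34 had at least 95% of their exon bases within that gene's exons, and 71 overlapped no coding gene.

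Per length, the median level over the 24 libraries was 11.26 FPKM (reads scaled to exon length and library total, as deposited), against 15.4 FPKM in the coding genes. The short classes had the highest FPKM, with a median of 114.72 for snoRNA, 92.18 for miRNA, 15.68 for ncRNA, 12.33 for nontranslating_CDS and 6.62 for lncRNA. A fixed count sum sets a higher FPKM floor for shorter genes, so this order follows in part from the selection. The lowest FPKM was 67.96 for snoRNA, 36.62 for miRNA and 1.1 for lncRNA, at median lengths of 97, 219 and 1888 bases. The highest single genes were MIR398b at 438 FPKM, the lncRNA AT3G07365 at 334 FPKM and the ncRNA GUT15, the Arabidopsis homologue of a tobacco gene with an unstable transcript, at 249 FPKM. The values nearest the threshold were sums of 2410 reads for AT1G08973, 2417 for AT5G09155 and 2421 for AT3G61198 inside it, and 2380 for AT4G17098, 2355 for AT3G07315 and 2354 for AT1G04425 outside it. At least 300 reads in a group were reached by 188 genes in exa1 with NaCl, 188 in WT with NaCl, 189 in exa1 on MS, 198 in WT on MS, 113 in exa1 at 39 °C, 96 in WT at 39 °C, 192 in exa1 at 23 °C and 189 in WT at 23 °C. Replicates of a group differed by a chi-square of 1.68 to 2.19 per gene in the salt set and 3.36 to 19.26 in the heat set, where counting noise alone gives about 1.

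**Figure D1:**
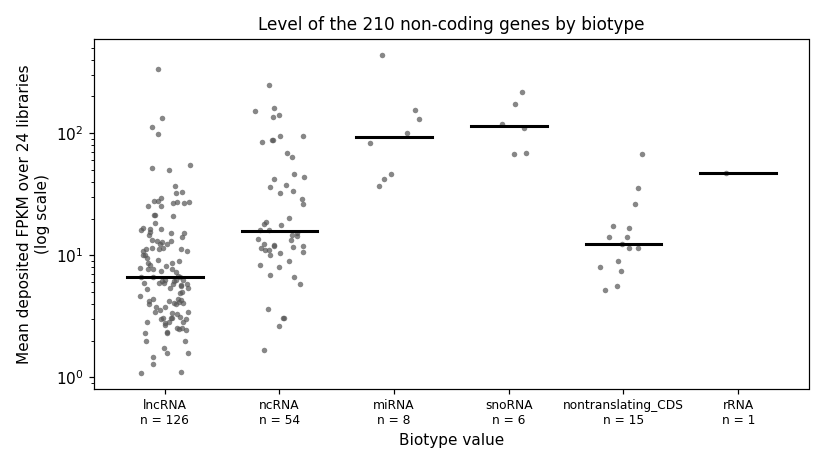
Mean deposited FPKM of each of the 210 non-coding genes over the 24 libraries (log scale), by Biotype value; a point is a gene and the bar is the median. The miRNA and snoRNA genes sit highest, with medians of 92.18 and 114.72 FPKM, and the lncRNA genes span 1.1 to 334.1 FPKM. The count sum that chose the genes sets a higher FPKM floor for shorter genes.

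Library totals ran from 17600922 to 21557382 counts. The EXA1 gene had 143 to 342 counts in exa1 libraries and 1488 to 3111 in WT libraries, as the labels require. Marker genes of the tissue were present. The summed level of 5 green-tissue genes was 18970 to 27990 CPM (counts scaled to a common library size with TMM factors) at 39 °C against 9595 to 11570 CPM at 23 °C, and that of 5 root genes was 355.7 to 407.5 against 1103 to 1277 CPM. The gene PYK10 held most of the root sum, at 371.4 CPM in exa1 at 39 °C against 1202 CPM at 23 °C. The root genes RHD6 and EXPA7 were also lower at 39 °C in both genotypes. NRT2.1 averaged 2.73 CPM at 39 °C against 2.693 CPM at 23 °C in exa1, and 2.408 against 3.348 CPM in WT. The root gene AT5G47450 was higher, at 7.569 against 5.135 CPM in exa1 and 22.77 against 20.66 CPM in WT. Seed storage genes summed to 7.849 to 19.28 CPM in exa1 and 0.07324 to 1.095 CPM in WT at 39 °C, and to 3.182 to 21.4 CPM in exa1 and 0.06842 to 2.436 CPM in WT at 23 °C. The part of these shifts in the results on non-coding genes was not tested, and in whole seedlings fewer cells of a type and less RNA per cell cannot be told apart.

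At 39 °C most of the non-coding genes fell. In exa1, 50 of the 210 genes rose and 126 fell against 23 °C (83.8% called at an adjusted p under 0.05, edgeR quasi-likelihood test). Of all 21196 genes tested 75.9% were called, 36.3% higher and 39.7% lower. In WT, 46 rose and 130 fell (83.8%). Of all genes 75.2% were called there, 36.6% higher and 38.6% lower. The libraries of the groups did not overlap for 176 of the 210 genes in exa1, where this held for 78.9% of all genes, and for 169 in WT, where it held for 75.9%. The median log2 fold change of the non-coding genes was -0.76 in exa1 and -0.74 in WT, against -0.09 and -0.06 over all genes tested. Coding genes with the same count sum had 0.08 and 0.10. A rise in both genotypes was shared by 42 genes, 84.0% of those that rose in exa1 and 91.3% of those that rose in WT, and a fall by 119, or 94.4% and 91.5%. Scaling to library totals in place of TMM factors moved the median of all genes by -0.88 in exa1 and -0.91 in WT, because TMM factors were 0.72 to 0.75 at 39 °C and 1.34 to 1.39 at 23 °C. With that scaling 23 genes rose and 163 fell in exa1 and 20 rose and 169 fell in WT. Of the rises, 21 of 50 in exa1 and 18 of 46 in WT changed sign, whereas every fall kept its sign and its call. A log2 rise of less than about this shift is therefore relative to the scaling.

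Falls were most frequent in the ncRNA and lncRNA classes. Of the 54 ncRNA genes 37 fell and 3 rose in both genotypes, with a median log2 fold change of -0.99 in exa1 and -0.98 in WT. Of the 126 lncRNA genes 73 fell and 27 rose, with medians of -0.91 and -0.84. Among the MIR genes 4 rose and 4 fell, among the nontranslating_CDS genes 6 rose and 4 fell, and among the snoRNA genes 2 rose and 1 fell. The 71 genes that overlap no coding gene had medians of -0.62 and -0.54, and the 34 genes inside the exons of a coding gene had 0.05 and -0.10.

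Salt moved about as many non-coding genes as it did genes in general. With NaCl, 90 of 209 genes tested rose and 63 fell in exa1 (73.2%), where 75.0% of all 21759 genes were called, 37.1% higher and 37.9% lower. In WT, 83 rose and 61 fell (68.9%), where 74.4% of all genes were called, 36.9% higher and 37.6% lower. AT1G09433 had too few reads in the salt set to be tested. The libraries of the groups did not overlap for 158 genes in exa1, where this held for 75.9% of all genes, and for 135 in WT, where it held for 75.2%. Tissue markers moved with the salt treatment as well. The summed level of the green-tissue genes was 6892 to 7084 CPM in exa1 with NaCl against 5346 to 5409 CPM on MS, and 10630 to 10900 CPM in WT with NaCl against 6492 to 6723 CPM on MS. That of the root genes was 1014 to 1036 CPM in exa1 with NaCl against 1949 to 2002 CPM on MS, and 920.7 to 924 CPM in WT with NaCl against 2191 to 2210 CPM on MS. PYK10 held most of this root sum, at 981.7 CPM in exa1 with NaCl against 1904 CPM on MS. NRT2.1 and EXPA7 were also lower with NaCl in both genotypes. AT5G47450 and RHD6 averaged higher, AT5G47450 at 22.54 against 2.633 CPM in exa1 and 33.76 against 6.117 CPM in WT. The part of the tissue markers in the salt results, the TAS genes included, was not tested. The 75 genes that rose in both genotypes were 83.3% of the rises in exa1 and 90.4% of those in WT, and the 50 that fell in both were 79.4% and 82.0%. Scaled to library totals, which moved the median of all genes by -0.15, 73 rose and 91 fell in exa1 and 66 rose and 92 fell in WT. Called changes of at least 2-fold under salt were 27 rises and 9 falls in exa1 and 24 rises and 11 falls in WT. Under heat there were 28 rises and 90 falls in exa1 and 26 rises and 86 falls in WT. The shares of all genes past this 2-fold limit are not given here, so these counts cannot be set against genes in general.

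**Figure D2:**
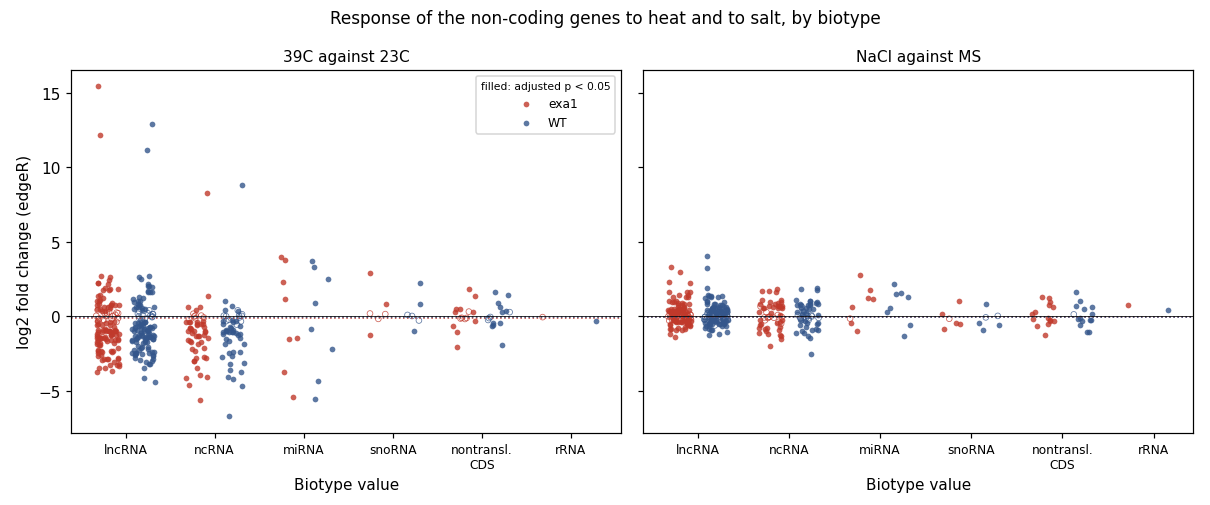
log2 fold change of each non-coding gene for 39 °C against 23 °C (left) and NaCl against MS (right), by Biotype value, exa1 in red and WT in blue; filled points passed an adjusted p of 0.05 and dotted lines are the median of all genes tested. Most ncRNA and lncRNA points lie below 0 under heat, with medians between -0.84 and -0.99, while the salt responses lie on both sides of 0.

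MIR398b, MIR408 and MIR824 rose under both stresses. miR398 represses the copper/zinc superoxide dismutases CSD1 and CSD2 and their copper chaperone CCS, miR408 represses copper proteins such as plantacyanin (ARPN) and laccases, and miR824 represses the MADS-box gene AGL16, which acts in stomatal development. MIR398b (chr5:4691022-4691137) had 234, 231 and 202 CPM in exa1 at 39 °C against 15.0, 17.0 and 16.6 CPM in exa1 at 23 °C. It had 181, 229 and 238 CPM in WT at 39 °C against 15.7, 17.6 and 16.2 CPM in WT at 23 °C. The groups stood far apart in both genotypes, with a log2 fold change of 3.78 ± 0.11 (standard error) in exa1 and 3.71 ± 0.11 in WT. Under salt it had 9.33, 10.9 and 13.3 CPM in exa1 against 7.43, 7.02 and 7.40 CPM on MS, and 12.5, 14.2 and 13.2 CPM in WT against 9.01, 10.1 and 8.09 CPM. The log2 fold change was 0.61 ± 0.12 in exa1 and 0.55 ± 0.11 in WT.

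MIR408 (chr2:19319814-19320031) had 58.8, 48.5 and 49.7 CPM in exa1 at 39 °C against 11.3, 9.47 and 10.6 CPM at 23 °C. In WT it had 56.8, 51.1 and 52.1 CPM at 39 °C against 7.90, 9.63 and 10.4 CPM at 23 °C. Its log2 fold change was 2.32 ± 0.11 in exa1 and 2.52 ± 0.11 in WT under heat and 1.22 ± 0.12 and 1.48 ± 0.11 under salt. With NaCl it was lower in exa1, at 13.9, 12.4 and 13.7 CPM, than in WT, at 16.7, 19.0 and 15.7 CPM, by a log2 fold change of -0.36 ± 0.10, and these libraries did not overlap.

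MIR824 (chr4:12625094-12625782) had the largest rise of a MIR gene under salt and a different level in the genotypes. With NaCl it had 97.5, 96.2 and 95.6 CPM in exa1 and 62.2, 63.2 and 64.7 CPM in WT. On MS it had 15.1, 14.3 and 13.6 CPM in exa1 and 12.7, 16.4 and 12.4 CPM in WT. The 3 exa1 libraries with NaCl lay above the 3 WT libraries, while on MS the genotypes overlapped. The rise was 2.75 ± 0.06 (log2) in exa1 and 2.19 ± 0.06 in WT, and the difference between the rises was itself called, at 0.56 ± 0.09 (adjusted p = 2.36e-07). At 39 °C it had 40.1, 44.5 and 39.6 CPM in exa1 and 24.1, 20.7 and 19.9 CPM in WT. At 23 °C it had 2.39, 2.18 and 3.33 CPM in exa1 and 2.41, 1.91 and 2.29 CPM in WT. The heat rises of 3.97 ± 0.15 in exa1 and 3.29 ± 0.15 in WT differed by 0.69 ± 0.21, which was not called. The level at 39 °C was higher in exa1 by 0.94 ± 0.12. MIR824 overlaps AT4G24413 on the other strand by 26.3% of its exon bases.

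The window around the annotated start of MIR824 is printed because it holds the sequence GAANNTTC, the core of the heat shock element bound by heat shock factors. It covers 250 bases before to 50 after the annotated start (RefSeq TAIR10.1, chr4:12624844-12625143, plus strand), with the match in capitals 86 bases before the start.
MIR824 window: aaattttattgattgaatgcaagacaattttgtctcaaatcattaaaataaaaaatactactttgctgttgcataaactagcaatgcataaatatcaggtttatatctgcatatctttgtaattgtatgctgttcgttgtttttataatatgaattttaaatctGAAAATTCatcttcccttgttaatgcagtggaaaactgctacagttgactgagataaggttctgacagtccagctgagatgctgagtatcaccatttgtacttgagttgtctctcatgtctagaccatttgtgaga
On either strand the sequence was found in 30 of the 210 windows (14.29%) and in 11.62% of the 33054 windows of all genes. It was present in 8 of the 42 genes that rose at 39 °C in both genotypes (19.0%), in 16 of the 119 that fell in both (13.4%) and in 6 of the other 49 (12.2%). MIR850, which fell, held it too, 27 bases before its start. The windows of MIR398b and MIR408, which rose at 39 °C as MIR824 did, did not hold it. The annotated start of a MIR gene need not be its transcription start, which was not measured here. Whether the promoters of these genes hold the sequence therefore cannot be read from the windows. The core of the abscisic acid response element, ACGTG, was found in 24.29% of the windows and 25.7% of all windows, and its longer form ACGTGNC, which contains it, in 9.05% and 9.63%. The phosphate starvation element GNATATNC was found in 7.14% and 6.25%, and the evening element AAATATCT in 4.29% and 5.35%.

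MIR822 and MIR850 fell under heat. MIR822 (chr5:897020-897356) had 0.206, 0.396 and 0.525 CPM in exa1 at 39 °C, from 3, 6 and 7 reads, against 15.9, 15.3 and 15.9 CPM at 23 °C. In WT it had 0.822, 1.03 and 0.440 CPM at 39 °C against 15.6, 13.6 and 16.7 CPM at 23 °C. The log2 fold change was -5.38 ± 0.24 in exa1 and -4.31 ± 0.21 in WT under heat, and -0.98 ± 0.11 and -1.33 ± 0.11 under salt. MIR850 (chr4:7845707-7845927) had 0.550, 0.726 and 0.900 CPM in exa1 at 39 °C against 11.4, 9.84 and 7.47 CPM at 23 °C. In WT it had 0.0685, 0.0738 and 0.293 CPM at 39 °C, from 1, 1 and 4 reads, against 7.72, 7.57 and 5.61 CPM at 23 °C. It was higher in exa1 on MS by 0.70 ± 0.09 and at 39 °C by 2.28 ± 0.60. MIR850 lies within the ncRNA AT4G13495 on the same strand, so reads of the pair cannot be told apart. AT4G13495 fell at 39 °C by 4.09 ± 0.13 in exa1 and by 3.59 ± 0.13 in WT on the log2 scale.

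The remaining MIR genes split between the stresses. MIR414 rose under salt, with 36.5, 36.0 and 37.9 CPM in exa1 against 10.7, 11.3 and 10.5 CPM on MS and 33.1, 37.5 and 39.5 CPM in WT against 12.3, 12.6 and 11.5 CPM. It fell under heat by 1.55 ± 0.15 in exa1 and 0.87 ± 0.15 in WT on the log2 scale. MIR5642a did the same, with log2 fold changes of 1.15 ± 0.06 in exa1 and 1.33 ± 0.06 in WT under salt and -1.45 ± 0.12 and -2.17 ± 0.12 under heat. At 23 °C it had 53.4, 55.2 and 56.9 CPM in exa1 and 97.5, 82.3 and 72.6 CPM in WT, a log2 fold change of -0.61 ± 0.11. The 18S ribosomal RNA gene AT3G41768 lies downstream on the same strand and was lower in exa1 at 23 °C by 0.52 ± 0.08, and its part in the counts of MIR5642a was not tested. MIR5630a fell under salt by 0.47 ± 0.16 in exa1 and 0.55 ± 0.17 in WT, and its log2 rise under heat of 1.17 ± 0.24 and 0.93 ± 0.24 was 0.28 and 0.03, and not called, with library totals.

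All 5 TAS genes among the 210 fell under salt and fell further under heat, in both genotypes. TAS1A, TAS1B, TAS1C and TAS2 give rise to small RNAs that act on pentatricopeptide-repeat genes and on HTT genes, and TAS3, which is cut under miR390, gives rise to those that act on ARF2, ARF3 and ARF4. TAS1A had 10.1, 8.63 and 11.1 CPM in exa1 with NaCl against 28.3, 30.3 and 27.0 CPM on MS. In WT it had 11.0, 10.4 and 12.3 CPM with NaCl against 31.0, 30.1 and 32.7 CPM on MS. At 39 °C it had 0.481, 0.989 and 1.05 CPM in exa1 against 12.6, 14.5 and 11.8 CPM at 23 °C. In WT it had 0.411, 1.18 and 0.732 CPM at 39 °C against 15.1, 15.3 and 11.2 CPM. No stressed library reached the TAS1A level of any unstressed library of its set.

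The log2 fold changes of the TAS genes under salt were -1.53 in exa1 and -1.47 in WT for TAS1A, -1.29 and -1.32 for TAS1B, and -0.95 and -0.97 for TAS1C. They were -0.78 and -0.70 for TAS2 and -1.16 and -1.11 for TAS3, with standard errors of 0.06 to 0.16. Under heat they were -3.94 in exa1 and -4.17 in WT for TAS1A, -3.45 and -4.09 for TAS1B, and -4.12 and -3.70 for TAS1C. They were -2.69 and -3.17 for TAS2 and -5.59 and -6.68 for TAS3, with standard errors of 0.23 to 0.34. TAS2 had the highest level of the 5 per length, at 29.1 FPKM, and kept the most reads at 39 °C, with 3.30, 5.80 and 4.35 CPM in exa1 and 2.19, 2.88 and 5.86 CPM in WT. TAS3 was left with 5, 1 and 3 reads in exa1 and 1, 2 and 1 reads in WT at 39 °C, against 265, 294 and 250 reads in exa1 and 302, 279 and 295 reads in WT at 23 °C. Lower levels in exa1 were called for TAS1B, by 0.34 ± 0.09 on MS and 0.31 ± 0.12 with NaCl, and for TAS2, by 0.17 ± 0.06 on MS and 0.24 ± 0.07 with NaCl, all on the log2 scale. TAS1A, TAS1B and TAS1C are near-identical over parts of their length, so the division of reads between them is uncertain. TAS3B, TAS3C and TAS4 had 14, 21 and 173 reads in all and did not reach the sum.

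**Figure D3:**
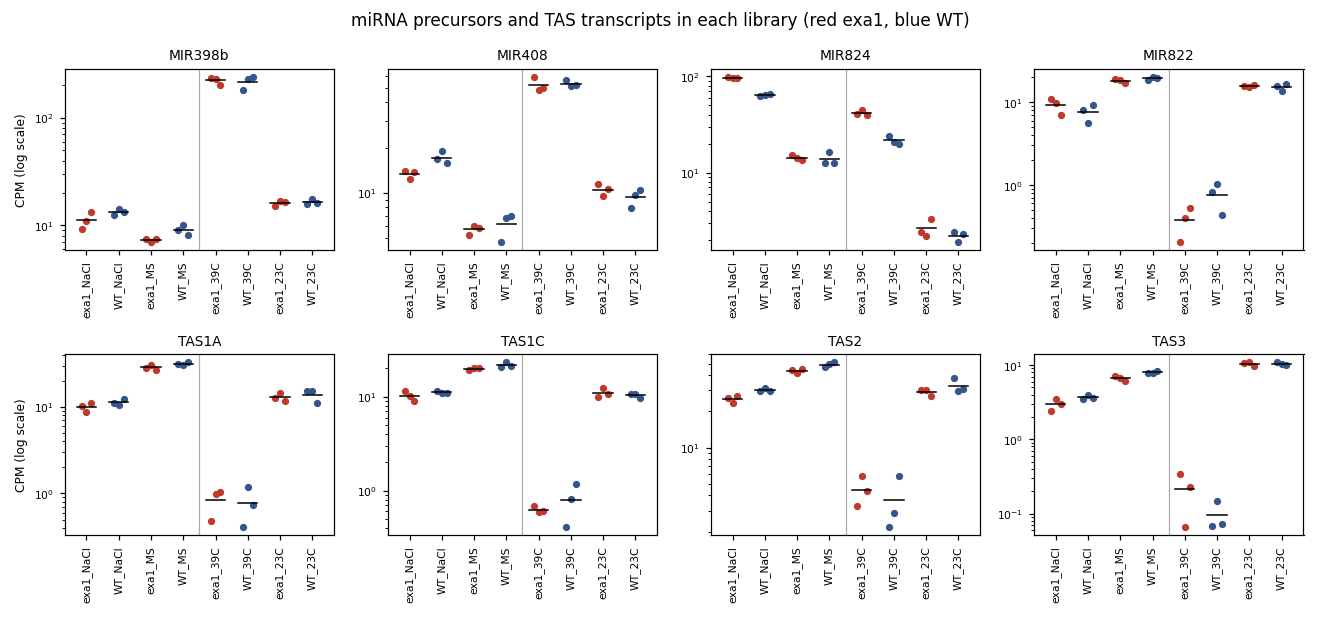
CPM (TMM-scaled, log scale) of 4 MIR genes and 4 TAS genes in each of the 24 libraries, exa1 in red and WT in blue; a point is a library, the bar is the group mean, and the grey line parts the salt set from the heat set. MIR398b, MIR408 and MIR824 are higher in the stressed groups, the TAS genes and MIR822 are lower, and the exa1 points of MIR824 with NaCl lie near 96 CPM against 62.2 to 64.7 CPM in WT.

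A list of targets reported for these small RNAs, chosen after the levels of the non-coding genes were known, is given beside them. The miR398 targets fell at 39 °C. CSD1 averaged 3.94 ± 1.02 CPM in exa1 at 39 °C against 36.4 ± 1.46 CPM at 23 °C, and 4.67 ± 1.2 CPM in WT at 39 °C against 29.1 ± 0.681 CPM at 23 °C (SD, n = 3 each). CSD2 changed by -2.55 (log2) in exa1 and -1.78 in WT, and CCS by -0.82 and -0.89. Of the miR408 targets, ARPN changed by -4.55 in exa1 and -5.28 in WT and the laccase gene LAC3 by -3.93 and -4.68, and the miR824 target AGL16 by -1.22 and -1.2. Under salt, where MIR408 and MIR824 rose as well, ARPN rose by 1.11 in exa1 and 0.50 in WT, LAC3 fell by 1.09 and 0.96, and AGL16 had log2 values of 0.01 in exa1, not called, and 0.22 in WT, called. CSD1 rose under salt by 0.23 in exa1 and 0.25 in WT, while CSD2 fell by 0.46 and 0.40.

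The auxin response factor genes ARF3 and ARF4, targets of the TAS3 small RNAs, fell at 39 °C, as TAS3 did, with log2 fold changes of -3.46 in exa1 and -3.41 in WT for ARF3 and -3.26 and -3.41 for ARF4, and ARF2 changed by -0.25 and -0.30. HTT1, a target of TAS1 small RNAs that is known from heat tolerance, averaged 4.27 ± 0.380 CPM in exa1 at 39 °C against 0.0894 ± 0.0188 CPM at 23 °C and 4.90 ± 1.52 against 0.0739 ± 0.0750 CPM in WT (SD, n = 3 each). HTT2 had log2 values of 0.62 and 0.53, below the shift between scalings. No mature small RNA was sequenced, so a link between the level of a precursor and that of a target was not tested.

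Of 30 genes of small RNA production and RNA decay, 9 rose and 11 fell in exa1 and 5 rose and 13 fell in WT at 39 °C, where 75.9% and 75.2% of all genes were called, so the list was not called more often than genes in general. AGO2, an ARGONAUTE, rose by 2.32 in exa1 and 2.13 in WT, AGO7, which binds miR390, fell by 2.61 and 1.97, and RDR6 fell by 1.61 and 1.95 on the log2 scale. With NaCl, 9 rose and 13 fell in exa1 and 11 rose and 13 fell in WT, where 75.0% and 74.4% of all genes were called. RDR6 fell by 0.82 in exa1 and 0.64 in WT. Between the genotypes 4 were higher and 1 lower in exa1 on MS, 3 higher and 5 lower with NaCl, 0 at 23 °C and 4 higher at 39 °C, where 29.3%, 35.8%, 7.54% and 15.5% of all genes were called. DCL3, which makes the small RNAs of DNA methylation, fell more under salt in exa1 than in WT, with a difference of -0.61 ± 0.164 (log2), and was lower in exa1 with NaCl by 0.48 ± 0.129.

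The largest heat rises of the whole set were those of 3 transcripts antisense to coding genes, of which HSP17.4 and MBF1C are known from the heat response. AT3G07365 (chr3:16984335-16984787) lies across HSP17.4, a cytosolic small heat shock protein gene, and had 909, 723 and 902 CPM in exa1 at 39 °C against 0, 0 and 1 reads at 23 °C. In WT it had 781, 855 and 777 CPM at 39 °C against 3, 3 and 2 reads at 23 °C. AT3G04685 (chr3:8919082-8919257) lies across MBF1C, a transcriptional coactivator of heat tolerance, and had 156, 111 and 162 CPM in exa1 at 39 °C against 0.717, 0.333 and 0.310 CPM at 23 °C. In WT it had 156, 171 and 132 CPM at 39 °C against 0.108, 0.60 and 0.308 CPM. AT1G09433 (chr1:27935393-27935621) lies across AT1G74300 and had 29.8, 21.5 and 34.3 CPM in exa1 at 39 °C and no read at 23 °C, at least 741-fold higher over a floor of 3 counts for the group. In WT it had 34.3, 47.2 and 40.4 CPM at 39 °C and 1 read in all at 23 °C. Nearly all reads of these 3 genes came from 39 °C, so the count sum selected them through that group.

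Their coding partners moved in the same direction. HSP17.4 changed by 14.50 (log2) in exa1 and 13.64 in WT where AT3G07365 changed by 15.45 and 12.95. MBF1C changed by 8.83 and 8.74 where AT3G04685 changed by 8.30 and 8.81, and AT1G74300 changed by 2.50 and 1.77. Fitted fold changes against groups with a few reads depend on the model and are not bounds. The libraries were strand-specific per the labels, the strand setting of the counting is not given in the sources used here, and so reads of an antisense gene and of its coding partner cannot be told apart where their exons overlap.

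Over all 139 overlapping genes, those that were called at 39 °C mostly had a partner called in the same direction. In exa1, of 108 called genes, 68 had a partner that moved the same way, 15 had a partner that moved the other way and 25 had a partner that was not called. In WT the counts were 71, 12 and 27 of 110. Under salt they were 46, 17 and 24 of 87 in exa1 and 40, 14 and 24 of 78 in WT. Of called differences between genotypes, the same-way, other-way and uncalled partners numbered 8, 3 and 18 of 29 on MS and 17, 2 and 27 of 46 with NaCl. They numbered 3, 1 and 16 of 20 at 23 °C and 7, 2 and 19 of 28 at 39 °C. Of all genes 29.3%, 35.8%, 7.54% and 15.5% were called in these 4 comparisons. Since 75.9% and 75.2% of all genes were called under heat, a called partner is the common case there.

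The ratio of antisense to coding reads was nearly constant for some genes. Among the 32 genes inside coding exons whose partner had at least 100 reads in at least 2 groups, 10 stayed under 10 reads per 100 partner reads and within a 2-fold range of that ratio in every group, at 0.876 to 7.98 reads per 100, while their partners' levels ranged 2.07-fold to 512-fold over the groups. Among them were AT1G04503 on the histone gene AT1G06760, AT2G08420 on VAR2, AT2G08665 on LHB1B2, AT3G02505 on NF-YC11, AT3G04685 on MBF1C, AT3G08785 on PSRP5, AT3G22121 on CWLP, AT4G03585 on CYP86A2 and AT5G63195 on AT5G63190. AT2G08665, for example, had 4.34 reads per 100 LHB1B2 reads in exa1 and 4.25 in WT at 39 °C, 4.08 in exa1 and 4.59 in WT at 23 °C, 4.21 in exa1 and 3.41 in WT with NaCl, and 4.45 in exa1 and 4.25 in WT on MS. AT3G07365, which met neither limit, had 8.22 and 8.18 reads per 100 HSP17.4 reads in exa1 and WT at 39 °C. Over the 6 groups with at least 100 HSP17.4 reads its ratio ran from 6.46 to 13.3, a 2.06-fold range. Whether reads of the coding transcript contribute to these counts was not tested.

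Other genes moved apart from their partners. MIR398b lies within the exons of AT5G14550 on the other strand and had 951 reads per 100 partner reads in exa1 and 1040 in WT at 39 °C, against 77.5 in exa1 and 78.5 in WT at 23 °C. AT5G14550 averaged 23.4 CPM in exa1 and 20.7 CPM in WT at 39 °C against 20.9 and 21.0 CPM at 23 °C. MIR408 likewise had 291 reads per 100 reads of AT2G47020 in exa1 and 405 in WT at 39 °C, against 50.8 and 61.1 at 23 °C. AT1G09433 had 143 and 262 reads per 100 in exa1 and WT at 39 °C against 0 and 0.263 at 23 °C. Of the 32 genes, 5 had more reads than their partner in every group used and 18 met neither of the limits. Among 77 genes only partly inside coding exons, 8 met both limits, 55 met neither and 26 had more reads than their partner in every group used.

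**Figure D4:**
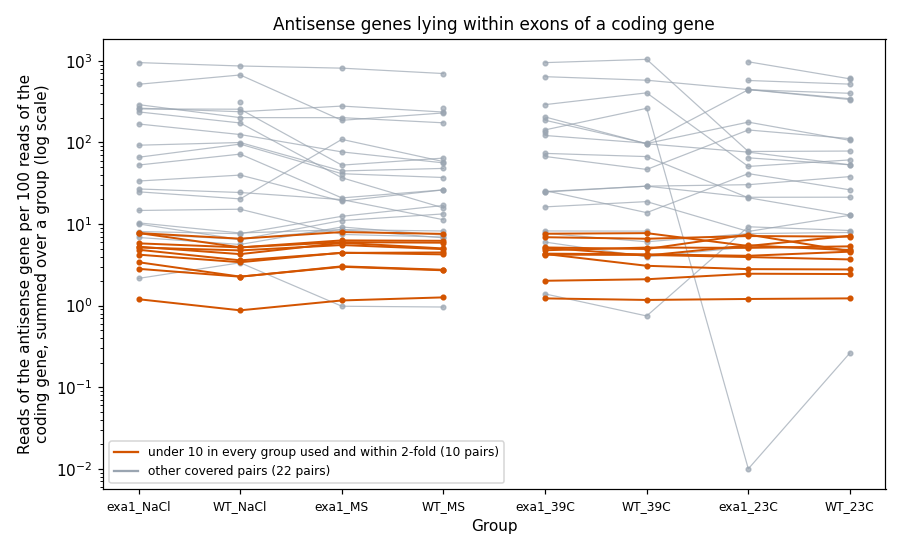
Reads of each antisense gene per 100 reads of the coding gene whose exons cover it, summed over the 3 libraries of a group (log scale), for 32 genes; lines join the groups within the salt set and within the heat set, groups with under 100 partner reads are not drawn, and a group at 0 is drawn at the lower edge. The 10 genes in orange stay between 0.876 and 7.98 in every group, while grey lines such as that of MIR398b reach 951 in exa1 and 1040 in WT at 39 °C, against 77.5 and 78.5 at 23 °C.

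The largest called salt rises in both genotypes were those of 2 antisense lncRNAs, AT4G06410 and AT1G04463. AT4G06410 (chr4:9386180-9387271), antisense to AT4G16670, had 106, 103 and 95.8 CPM in exa1 with NaCl against 10.3, 10.6 and 10.2 CPM on MS. In WT it had 142, 132 and 141 CPM with NaCl against 9.10, 7.76 and 8.30 CPM on MS. Its log2 fold change was 3.29 ± 0.06 in exa1 and 4.05 ± 0.06 in WT, a difference of -0.75 ± 0.10 (adjusted p = 6.73e-11), and AT4G16670 changed by 0.87 and 1.21. It had 378 reads per 100 partner reads in exa1 and 461 in WT with NaCl, against 70.2 and 64.3 on MS. AT1G04463 (chr1:1966019-1966939) had 24.5, 22.0 and 21.0 CPM in exa1 with NaCl against 3.04, 3.65 and 2.02 CPM on MS, and 15.7, 15.6 and 15.2 CPM in WT against 1.60, 1.86 and 1.34 CPM. Its log2 fold change was 2.95 ± 0.13 in exa1 and 3.26 ± 0.15 in WT, while its partner AT1G06450 had values of 0.28 and -0.20 that were not called. AT3G21755, across the glycosyltransferase gene HYR1, rose by 2.32 ± 0.11 in exa1 and 1.94 ± 0.10 in WT, and HYR1 rose by 1.42 and 1.51.

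Rises under salt were also called for ncRNAs with no coding overlap. AT1G69252 (chr1:26036570-26037659) had 172, 166 and 163 CPM in exa1 with NaCl against 51.1, 51.6 and 49.1 CPM on MS, and 178, 176 and 178 CPM in WT against 48.8, 46.0 and 46.6 CPM. Its log2 rises were 1.72 ± 0.04 and 1.91 ± 0.04. AT2G31585, 70 bases from AT2G31580, had 41.0, 46.3 and 42.4 CPM in exa1 with NaCl against 9.91, 13.8 and 12.5 CPM on MS, and 49.1, 53.8 and 51.8 CPM in WT against 13.5, 15.1 and 15.4 CPM. Its log2 rises were 1.84 ± 0.08 and 1.82 ± 0.07. The opposite course was taken by AT4G30975 (chr4:15074425-15078076), which overlaps a coding gene by only 2.0% of its exon bases and fell by 1.95 ± 0.16 in exa1 and 2.52 ± 0.17 in WT under salt. AT1G23052, antisense to AT1G23050 over its whole length, fell by 4.62 ± 0.24 in exa1 and 4.64 ± 0.25 in WT under heat, with 0.275, 0.726 and 0.975 CPM in exa1 at 39 °C against 17.1, 16.4 and 14.9 CPM at 23 °C.

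GUT15 (chr2:7994941-7997239), the most read of the ncRNA genes, changed little beside these. It had 365, 377 and 353 CPM in exa1 with NaCl against 286, 300 and 294 CPM on MS. In WT it had 366, 372 and 366 CPM with NaCl against 316, 324 and 326 CPM on MS. The log2 rise was 0.32 ± 0.03 in exa1 and 0.19 ± 0.03 in WT. Scaled to library totals the WT rise was 0.04 and not called. Under heat its value of 0.42 ± 0.13 in exa1 was -0.47 with library totals. FLORE (AT1G69572, chr1:26161551-26162791), the circadian antisense transcript of CDF5, had 1.10, 0.726 and 1.2 CPM in exa1 at 39 °C against 7.77, 6.58 and 8.13 CPM at 23 °C, and 2.05, 1.55 and 1.10 CPM in WT against 15.2, 9.71 and 10.8 CPM. It fell by 2.90 ± 0.26 in exa1 and by 2.91 ± 0.23 in WT on the log2 scale. It was lower in exa1 at 23 °C by 0.67 ± 0.18 and with NaCl by 0.70 ± 0.16. CDF5 (AT1G69570) was also lower in exa1, by 1.79 at 23 °C and 0.82 with NaCl. Of the other named lncRNAs on the list (IPS1, AT4, ELENA1, DRIR, APOLO, COOLAIR, HID1, MARS and 7SL), 0 were among the 210 genes. AT4 had 23023 reads in all and was left out by its Biotype value, not by its reads. MARS had no row, and the others had at most 809 reads in all.

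Among the snoRNA genes, AT4G39366 had 16.8, 29.8 and 22.2 CPM in exa1 at 39 °C against 3.66, 2.52 and 3.10 CPM at 23 °C, and 13.5, 13.1 and 11.9 CPM in WT against 3.70, 1.87 and 2.43 CPM. Its log2 rises were 2.89 ± 0.22 and 2.26 ± 0.23. AT1G09027 rose under salt by 1.05 ± 0.09 in exa1 and 0.83 ± 0.09 in WT and fell under heat by 1.23 ± 0.14 and 0.95 ± 0.14. AT3G08165 fell under salt by 0.86 ± 0.10 in exa1 and 0.94 ± 0.10 in WT, and its heat values of 0.83 ± 0.19 and 0.87 ± 0.19 were below the shift between scalings. The libraries were made as mRNA libraries, so reads on such short genes may stem from longer transcripts, which was not tested. The 18S ribosomal RNA gene AT3G41768 was lower in exa1 on MS by 0.29 ± 0.09, at 23 °C by 0.52 ± 0.08 and at 39 °C by 0.27 ± 0.08, and rose under salt by 0.74 ± 0.09 in exa1 and 0.46 ± 0.08 in WT. Among the nontranslating_CDS genes, BPG2, which acts in chloroplast ribosomal RNA processing, fell under salt by 1.25 ± 0.12 in exa1 and 1.01 ± 0.11 in WT and rose under heat by 1.40 ± 0.11 and 1.41 ± 0.11.

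Between the genotypes, more of the non-coding genes were higher than lower in exa1 in each of the 4 conditions. On MS 32 genes were higher and 24 lower in exa1 (26.8% of 209), where 29.3% of all genes were called, 13.3% higher and 16.0% lower. Scaled to library totals, the split on MS was 45 higher and 21 lower. With NaCl 48 were higher and 32 lower (38.3%), where 35.8% of all genes were called, 18.6% higher and 17.2% lower. At 23 °C 29 were higher and 7 lower (17.1% of 210), where 7.54% of all genes were called, 3.28% higher and 4.26% lower. At 39 °C 35 were higher and 7 lower (20.0%), where 15.5% of all genes were called, 7.45% higher and 8.03% lower. The exa1 and WT libraries did not overlap for 80 genes on MS, 89 with NaCl, 84 at 23 °C and 66 at 39 °C, where this held for 41.4%, 43.1%, 32.3% and 28.2% of all genes. The median log2 fold change was 0.14 at 23 °C and 0.19 at 39 °C, against 0.00 over all genes tested in both. Among the ncRNA genes 13 were higher and 1 lower in exa1 at 23 °C. Most differences were small: at least 2-fold changes were called for 1 higher and 1 lower on MS, 2 and 2 with NaCl, 1 and 1 at 23 °C, and 3 and 1 at 39 °C. For these 2-fold counts too the shares of all genes are not given. The count at 39 °C was 18 without the second exa1 library and 26 without the second WT library, and that at 23 °C was 22 without the second exa1 library and 21 without the second WT library.

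AT4G04223 was the only gene lower in exa1 in all 4 comparisons. It is an ncRNA of chr4:2036511-2037816, 565 bases from the receptor-like protein gene RLP46. It had 2.11, 2.15 and 2.90 CPM in exa1 and 9.46, 9.26 and 9.80 CPM in WT with NaCl, and 3.25, 2.80 and 3.12 CPM in exa1 and 9.01, 8.47 and 9.80 CPM in WT on MS. These libraries were far apart in both media. In the heat set it had 3.23, 1.98 and 2.55 CPM in exa1 and 8.90, 7.31 and 7.54 CPM in WT at 39 °C, and 2.31, 3.15 and 1.97 CPM in exa1 and 7.11, 8.84 and 7.18 CPM in WT at 23 °C. All 12 exa1 libraries lay below all 12 WT libraries. The log2 fold change was -1.57 ± 0.15 on MS, -2.0 ± 0.16 with NaCl, -1.63 ± 0.19 at 23 °C and -1.62 ± 0.22 at 39 °C, and neither stress changed its level in either genotype past the threshold. RLP46 had -0.19 on MS, -0.13 at 23 °C and -0.28 at 39 °C, none called, and -0.70 with NaCl, called.

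Higher levels in exa1 in all 4 comparisons were called for 7 genes, AT1G04183, AT1G08973, AT1G67105, AT2G14878, AT2G44255, AT3G57965 and AT4G37432. AT1G67105 (chr1:25057479-25058264), an ncRNA 2615 bases from LBD40, had 7.38, 7.54 and 9.95 CPM in exa1 and 3.79, 3.59 and 3.91 CPM in WT on MS, and 7.37, 8.66 and 9.37 CPM in exa1 and 2.77, 3.90 and 2.67 CPM in WT at 23 °C. Its log2 fold change was 1.14 ± 0.15 on MS, 1.02 ± 0.18 with NaCl, 1.45 ± 0.17 at 23 °C and 0.61 ± 0.19 at 39 °C. AT1G08973, antisense to the nuclease gene ENDO2, was higher by 0.61 ± 0.18 on MS, 0.66 ± 0.14 with NaCl, 0.83 ± 0.22 at 23 °C and 1.04 ± 0.21 at 39 °C, while ENDO2 was lower in exa1 on MS by 0.53 and higher with NaCl by 1.14. AT3G57965 was higher by 0.26 ± 0.06 on MS, 0.27 ± 0.06 with NaCl, 0.57 ± 0.11 at 23 °C and 0.83 ± 0.16 at 39 °C. The other 4 had log2 fold changes of 0.20 to 0.80.

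**Figure D5:**
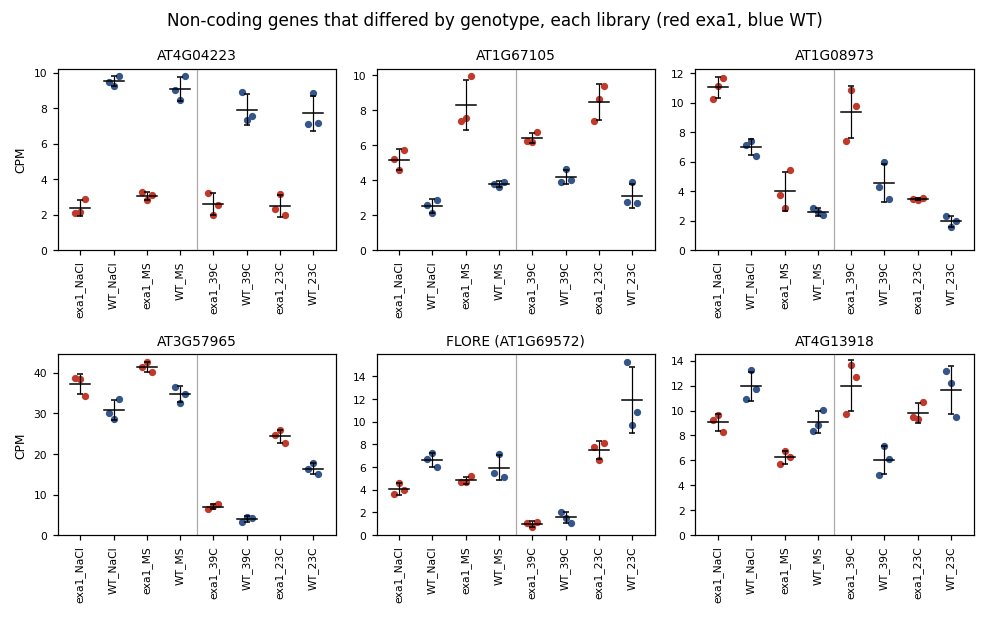
CPM (TMM-scaled) of 6 non-coding genes in each of the 24 libraries, exa1 in red and WT in blue, with group means and SD (n = 3); the grey line parts the salt set from the heat set. AT4G04223 lies at 1.97 to 3.25 CPM in exa1 and 7.11 to 9.80 CPM in WT in every condition, and AT4G13918 lies at 9.69 to 13.7 CPM in exa1 and 4.86 to 7.16 CPM in WT at 39 °C.

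Differences that followed the coding partner were seen among antisense genes. AT2G08665 was lower in exa1 by 0.96 ± 0.29 on MS and 1.22 ± 0.26 with NaCl, and the light-harvesting gene LHB1B2 that covers it was lower by 1.03 and 1.52. The green-tissue marker genes summed to 6892 to 7084 CPM in exa1 and 10630 to 10900 CPM in WT with NaCl. AT3G03105, across the metallothionein gene MT3, was lower in exa1 at 23 °C by 0.93 ± 0.19, with 20.9, 15.1 and 21.0 CPM in exa1 and 36.3, 42.5 and 30.1 CPM in WT, and MT3 was lower by 0.68. BGLU5, a nontranslating_CDS gene named for a beta-glucosidase, was lower in exa1 with NaCl by 0.97 ± 0.07, at 25.0, 26.1 and 23.8 CPM in exa1 and 47.3, 49.6 and 49.8 CPM in WT.

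The response to salt differed between exa1 and WT for 30 of 209 genes, 15 in each direction (14.4%), where 21.2% of all genes were called, 11.6% higher and 9.61% lower. Among genes of at least 2 CPM, the largest positive differences were those of AT3G52748, an ncRNA 15 bases from FTSZ2-2, which rose by 1.63 ± 0.12 in exa1 and 0.79 ± 0.12 in WT, and of SYTD, a nontranslating_CDS gene, which rose by 1.29 ± 0.11 and 0.53 ± 0.11. AT2G23672, antisense to YCF37, fell by 0.59 ± 0.18 in exa1 and had 0.15 ± 0.16 in WT, not called, and YCF37 fell by 0.78 and 0.16. Of the response to heat, 2 of 210 genes differed (0.952%), AT4G13918 and MIR5642a, both with the higher value in exa1, where 1.64% of all genes were called, 0.849% of all genes higher. The count was 1 when any of 9 libraries was left out, 4 without the first exa1 library and 9 without the third WT library at 39 °C. AT4G13918, antisense to the receptor-like protein gene RLP50, had 9.69, 13.7 and 12.7 CPM in exa1 and 4.86, 7.16 and 6.08 CPM in WT at 39 °C, and 9.44, 9.29 and 10.7 CPM in exa1 and 13.2, 12.2 and 9.51 CPM in WT at 23 °C. The exa1 value for heat was 0.29 ± 0.16, not called, the WT value was -0.95 ± 0.17, and the difference was 1.24 ± 0.23 (adjusted p = 0.012). RLP50 had heat values of -0.60 and -0.30, neither called.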

How the data were processed

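RNA-seq counts and FPKM of 24 libraries from whole Arabidopsis seedlings were read. HISAT2 2.0.4, HTSeq 0.6.1p1 and TAIR10 are named in the submitters' processing notes. The counts were deposited raw per gene. The FPKM values were deposited by the authors, and equal counts per library total and per RefSeq exon length for all 210 genes. Coordinates are those of RefSeq TAIR10.1. Each set of 12 libraries was fitted on all genes kept by filterByExpr with edgeR 4.0.16 (TMM factors, robust quasi-likelihood test, 1 mean per group), and p-values were Benjamini-Hochberg adjusted over all genes tested; called means an adjusted p below 0.05, and ± on log2 values is the standard error. CPM values are TMM-scaled. The test was tried on simulated counts. Library totals of 17600922 to 21557382 counts limit precision.

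Genes named are known lncRNAs, TAS and MIR genes, per comparison up to 5 rises and 5 falls among called genes whose higher group averaged 2 CPM or more and whose replicates did not overlap, the 3 highest by FPKM per Biotype value, the 3 nearest the sum threshold on each side, the coding partners of these, and the 4 largest changes of the machinery list. The genes, lists and motifs were chosen with earlier results of these data known, and the target list after the genes' values were seen. Alternatives were DESeq2 1.42.0, limma 3.58.1 on log2(FPKM + 1), other scalings and filters, a replicate block and leaving out libraries. R 4.3.3 and Python 3.11.15 were used. The details of 1 antisense gene are not reported here.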

Additional observations from a re-analysis of the deposited data

Results flagged for a closer look

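For the salt interaction term of the edgeR fit (log2 response in exa1 minus that in WT), the naming rule gave 12 called genes. The difference was 0.83 for AT3G52748, 0.76 for SYTD, 0.61 for AT1G04503, 0.59 for AT3G46668, 0.56 for MIR824 and 0.12 for GUT15. It was -0.75 for AT4G06410, -0.74 for AT2G23672, -0.69 for AT1G78865, -0.62 for AT1G06002, -0.54 for AT3G59765 and -0.45 for MIR850. Genes named for other comparisons were called here too, among them AT3G07365 at 2.14, BGLU5 at -0.38 and AT4G13495 at -0.31.

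The response to heat differed in the same sense for AT4G13918, by 1.24, and for MIR5642a, by 0.72. MIR5642a lies near the 18S ribosomal RNA gene AT3G41768, which had heat values of -0.05 in exa1, not called, and -0.30 in WT; the part of ribosomal RNA reads in its counts was not tested.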

How the results depend on the processing

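Of 145 called changes of 55 named genes, recomputed under the alternatives that keep all libraries of the groups compared, 1238 values kept direction and call, 50 lost the call and 2 changed sign; with a library left out, 881 kept both and 73 lost the call. Both sign changes were GUT15 under heat in exa1, at -0.47 with library totals and -0.48 with limma on log2(FPKM + 1). Counts of called genes moved with the choice of libraries and of tool, and the cause was not tested. With all 24 libraries in 1 fit they were 24 on MS, 37 with NaCl, 60 at 23 °C, 69 at 39 °C, 7 for the salt interaction and 17 for the heat interaction. A fit on only the 6 libraries compared called 20 at 39 °C, and limma called 0 for the heat interaction. Without the genes that overlap a coding gene, the counts were 26, 30, 15 and 12 for the genotypes on MS, with NaCl, at 23 °C and at 39 °C, 59 and 58 for salt in exa1 and WT, 56 and 53 for heat, and 18 and 0 for the interactions. Leaving out a library gave 21 to 33 calls at 23 °C, 18 to 61 at 39 °C and 1 to 9 for the heat interaction. The shares of all genes called under these alternatives are not given here. At 23 °C the count was 22 without the second exa1 library. Replicate numbers do not pair the samples by the labels: deviations of same-numbered libraries correlated at -0.07 to 0.144 over 12 pairs of groups. With the replicate block the counts were 53 on MS, 78 with NaCl, 35 at 23 °C and 38 at 39 °C, and AT2G08665 on MS and the salt interaction of AT1G04503 were no longer called. Scaling to library totals, leaving out the genes inside coding exons, and leaving out the nontranslating_CDS and rRNA genes were chosen after seeing the data. Depth limits genes with few reads at 39 °C, such as TAS3 and MIR850.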
